A study of Mus musculus with 6 samples.

Results

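Ionotropic glutamate receptor subunit genes were examined in cap analysis of gene expression (CAGE) data, in which the 5′ ends of capped RNAs are sequenced as tags and counted at each genomic position and strand. The 10 genes described are the AMPA receptor subunit genes Gria1, Gria2, Gria3 and Gria4, the kainate receptor subunit genes Grik2, Grik3 and Grik5, and the NMDA receptor subunit genes Grin1, Grin2d and Grin3a. The whole series was counted over 35325 genes that encode proteins or long non-coding RNAs. These 10 were chosen from levels already seen in these libraries, so their levels and the differences between the cell types are given as a description with no test. The series holds 3 libraries of mouse embryonic stem cells (mESCs) and 3 of mouse oligodendrocyte progenitor cells (mOPCs), all made from nuclear RNA with random primers. The mESCs were the R08 line, grown without feeder cells in serum with leukemia inhibitory factor. The mOPCs were oli-neu, a line derived from mouse oligodendrocyte progenitors and expanded with triiodothyronine, thyroxine, basic fibroblast growth factor and PDGF-BB. Each cell type is thus represented by 1 line, no treatment or mutation was compared, and the labels do not say whether the 3 libraries of a line came from separate cultures, so the spread between libraries may be technical. Every position in the deposited data of a cell type carries a single library name that differs between the cell types, so library preparation and cell type cannot be told apart.

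Ionotropic glutamate receptors are cation channels built of 4 subunits that open when glutamate binds. AMPA receptors carry fast excitatory currents, and the subunit GluA2, made from Gria2, keeps calcium out of the channel once its mRNA has been edited by the deaminase ADARB1. Kainate receptors combine subunits such as GluK2 and GluK3 with GluK5, which needs a partner to reach the surface, and NMDA receptors require the subunit GluN1, made from Grin1, in every channel. Oligodendrocyte progenitors are known for receiving glutamatergic input from axons and for carrying AMPA, kainate and NMDA receptors, whereas embryonic stem cells are not neural cells.

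The libraries held 16657021 to 40928704 tags. A level is given below in TPM, here tags per 1000000 tags of the library, counted within 500 bp of the annotated 5′ ends of a gene on its strand. A tag marks the position of an RNA 5′ end, so these levels do not scale with gene length as such. The span counted does grow with the number of separate annotated start regions, from 1 for Gria2 to 7 for Grik2. Over a whole cell type, a count of 0 allows up to 0.0411 TPM in mESCs and 0.0327 in mOPCs, a limit that covers counting error only. The same holds for the binomial intervals below, since tags amplified by PCR without molecular identifiers are not independent molecules. All 8 mESC marker genes examined were lower and all 8 mOPC markers were higher in mOPCs (edgeR's quasi-likelihood test, Benjamini-Hochberg adjusted p under 0.05), although Pdgfra, the receptor that defines progenitors in tissue, differed by a log2 fold change of only 0.53. Of 7 neuronal markers, Rbfox3, Snap25, Stmn2, Nefl and Nefm had 0 tags in every mOPC library, Tubb3 was lower there, and Syt1 was higher. Of the markers of mature oligodendrocytes, Mbp, Mog and Mag were higher in mOPCs and Mobp was lower.

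Across the 16713 genes that passed the filter on low counts, edgeR called 43.4% higher and 47.8% lower in mOPCs, so that a call by itself says little about any gene. Of the 10 subunit genes, 8 passed the filter; 7 of them were called higher and Grin1 was called lower, in a contrast that had chosen them. Every mOPC library lay above every mESC library for 44.6% of all tested genes and for 7 of the 10 subunit genes, and every mOPC library lay below for 46.8% of all genes and for Grin1. The libraries of the cell types overlapped for Gria1 and Grin2d. In nuclear RNA of a bulk culture, fewer cells that express a gene and less RNA per cell cannot be told apart.

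**Figure D1:**
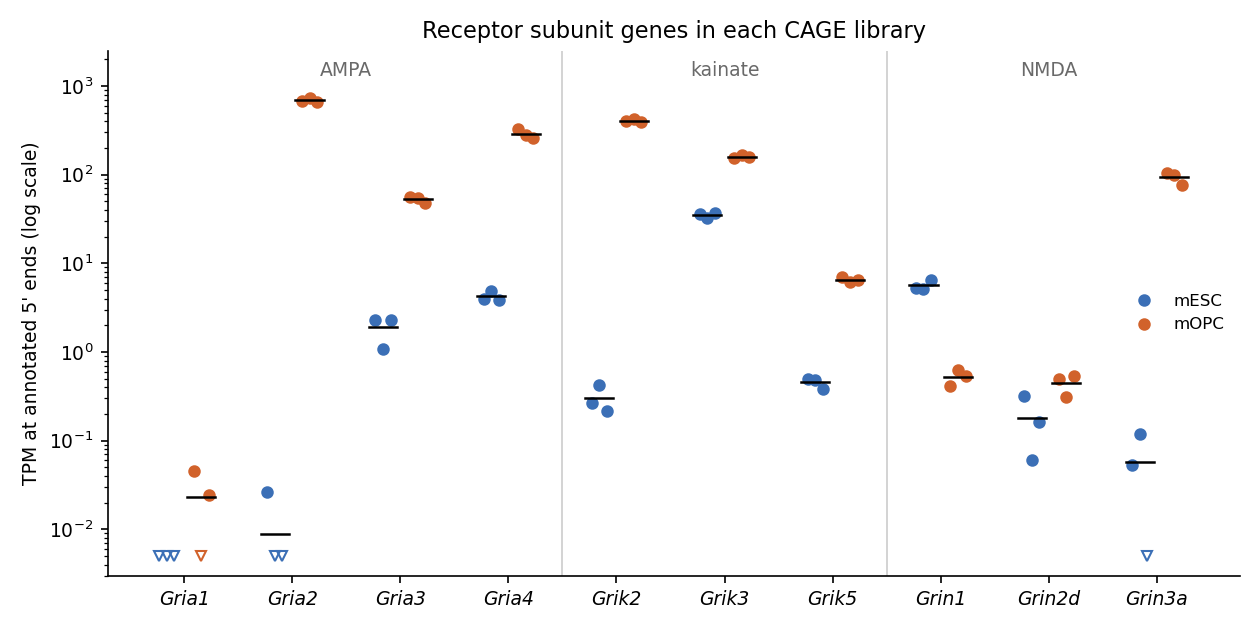
TPM (tags per 1000000) at annotated 5′ ends of each subunit gene (log axis), 1 point per library, with the mean of the 3 libraries of a cell type as a black line. Open triangles at the bottom mark libraries with 0 tags. In mOPCs, Gria2 has the highest level of the 10 genes and Gria1 the lowest, and Grin1 is the gene whose mESC libraries all lie above its mOPC libraries.

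Among the AMPA receptor genes, Gria2 had the highest level in mOPCs of all 10 subunit genes. Gria2 (chr3:80681450-80802835, minus strand) stood at 669, 735 and 667 TPM in the 3 mOPC libraries, and it had 1 tag in all mESC libraries together. The mOPC mean was 690 ± 38.4 TPM (SD, n = 3), and the pooled ratio of mOPC to mESC levels was 50263, with an exact 95% binomial interval from 9021 to 1985304 that reflects the single mESC tag and covers counting error only. The promoter of Gria2 is shown because a pair of sequence elements lies in it that resemble the RE1 element, the site bound by the neuronal repressor REST. The stretch is chr3:80802836-80803046 of GRCm38.p6, minus strand, from RefSeq, written 5′ to 3′ with both parts of the match and the 2 bases between them in capitals:
Gria2: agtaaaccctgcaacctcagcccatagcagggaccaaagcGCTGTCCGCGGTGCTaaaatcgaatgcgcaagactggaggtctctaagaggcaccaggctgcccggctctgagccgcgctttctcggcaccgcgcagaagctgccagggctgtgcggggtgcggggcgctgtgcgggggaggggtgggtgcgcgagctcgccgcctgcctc

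The parts searched for were AGCACC and GGACAGC on either strand, in that order and separated by any 2 bases. They were found in 10 of the 32851 RefSeq promoters (0.0304%), each of which spans 300 bp, and among the 7 subunit genes with a promoter in that set only Gria2 held them. GGACAGC alone was present in 6.56% of all promoters and, of the 7, likewise only in Gria2. The match lies 157 bp upstream of the first annotated 5′ end of Gria2 and 267 bp upstream of its leading start, the position with the highest mean level over the 6 libraries. A match is a description of letters, and binding was not measured here. Rest, which encodes the repressor, had 157, 165 and 151 TPM in mESCs and 29.1, 32.7 and 32.1 in mOPCs (log2 fold change −2.40, edgeR adjusted p = 3.84e-45).

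Gria4 was the AMPA gene with the second highest level in mOPCs and the highest in mESCs. Gria4 (chr9:4417896-4796234, minus strand) encodes GluA4, a subunit with fast gating. It had 3.99, 4.92 and 3.85 TPM in mESCs against 327, 280 and 260 in mOPCs, and the means of 4.25 ± 0.583 and 289 ± 34.7 (SD, n = 3 each) differed by 67.9-fold (log2 6.08 ± 0.15, SE). Gria3 (chrX:41400854-41678601, plus strand), which encodes GluA3, had 2.32, 1.08 and 2.28 TPM in mESCs against 56.5, 54.3 and 48.1 in mOPCs. Its means were 1.89 ± 0.705 and 52.9 ± 4.36 TPM, 27.9-fold apart. Both genes showed separate ranges in the cell types, with mOPC levels well below that of Gria2.

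Gria1 was the exception in the AMPA class. Gria1 (chr11:57011387-57330244, plus strand) encodes GluA1, the partner of GluA2 in many neurons. No tag lay at its annotated 5′ ends in the mESC libraries and 2 did in the mOPC libraries, 1 each in replicates 1 and 3. Both counts are at or below the limit of 3 tags, so no ratio is given and the gene was not detectable at this depth in either line. Inside the gene, away from annotated 5′ ends, 12 tags were found in mESCs and 21 in mOPCs over 315786 bp.

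Summed over the 4 AMPA genes, the level was 6.33, 6.00 and 6.13 TPM in mESCs and 1053, 1068 and 975 in mOPCs. The composition differed between the lines. In mOPCs, Gria2 made up 66.9 ± 2.91% of the AMPA tags (mean ± SD of 3 libraries), Gria4 28.0 ± 2.70% and Gria3 5.12 ± 0.219%. In mESCs, Gria4 made up 69.2 ± 11.0% and Gria3 30.6 ± 10.9%, while Gria2 supplied 1 of the AMPA tags of replicate 1 and none in replicates 2 and 3. These shares follow from the levels that chose the genes and were not tested.

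**Figure D2:**
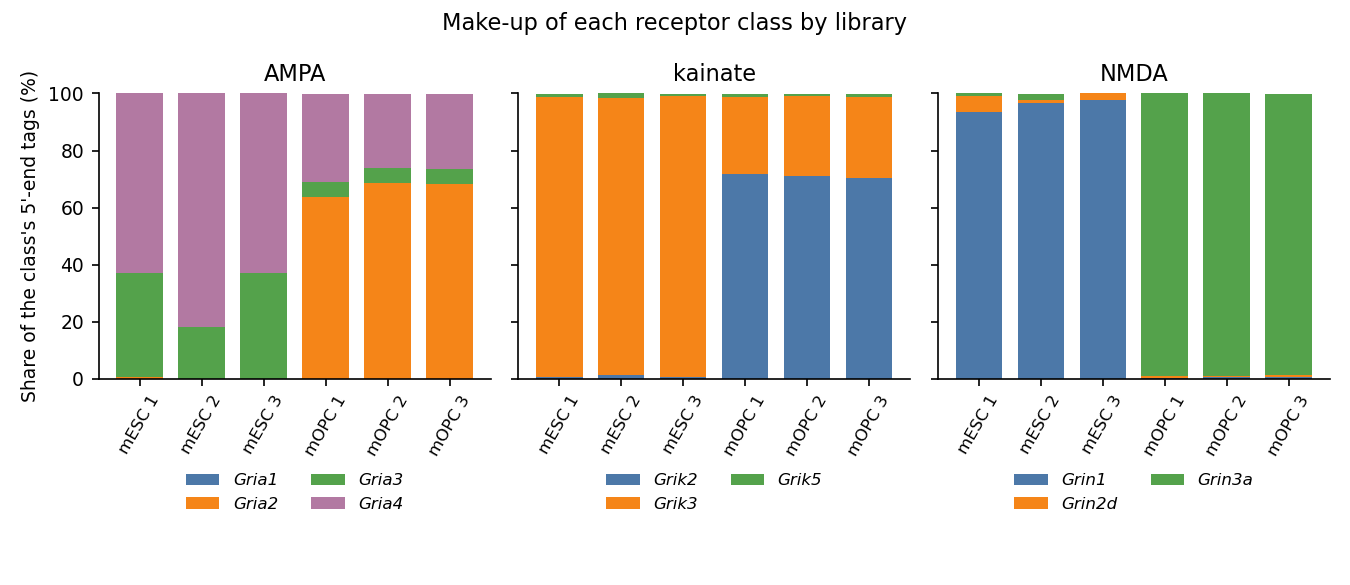
Share of the 5′-end tags (%) of the listed genes of each class contributed by each gene, 1 stacked bar per library. The kainate genes Grik1 and Grik4 and the NMDA genes Grin2a, Grin2b, Grin2c and Grin3b are not included. In mOPCs, Gria2 makes up 66.9% of the AMPA tags so counted, Grik2 71.0% of the kainate tags and Grin3a 98.9% of the NMDA tags. Gria4, Grik3 and Grin1 lead in mESCs.

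Of the kainate receptor genes, Grik2 was nearly absent from mESCs and Grik3 was present in both lines. Grik2 (chr10:49094833-49788766, minus strand), which encodes GluK2, had 0.264, 0.420 and 0.217 TPM in mESCs, 21 tags in all. In mOPCs it had 405, 425 and 390, and the pooled ratio was 1405 with an exact 95% binomial interval from 919 to 2271 for counting error only. Grik3 (chr4:125490700-125714173, plus strand), which encodes GluK3, stood at 36.5, 32.1 and 36.9 TPM in mESCs, the highest level of the 10 genes there. It was at 153, 167 and 158 in mOPCs, so that the means of 35.1 ± 2.68 and 159 ± 6.76 (SD, n = 3 each) differed by 4.54-fold (log2 2.18 ± 0.07, SE). This direction depended on the tags counted, since all tags inside the gene gave a log2 ratio of −0.55. That count begins at the annotated 5′ end, so it leaves out the leading start of Grik3, which lies 226 bp upstream. The bin of 1 kb upstream of the annotated 5′ end held a mean of 32.0 TPM in mESCs and 154 in mOPCs. The same count includes intronic tags, which are described below. Within 100 bp of the annotated 5′ end the log2 ratio was 1.50.

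Grik5 (chr7:25009849-25072346, minus strand), which encodes the high-affinity subunit GluK5, had low levels throughout. They were 0.501, 0.480 and 0.380 TPM in mESCs and 7.02, 6.10 and 6.52 in mOPCs, a 14.4-fold difference of the means (log2 3.85, or 2.60 with all tags inside the gene). More tags lay just outside the counted window: between 500 and 1000 bp upstream of its first annotated 5′ end, on the same strand, there were 1.50, 1.74 and 1.63 TPM in mESCs and 26.0, 27.0 and 22.3 in mOPCs. The 5′ end of Zfp574 lies on the opposite strand 221 bp from that of Grik5, and the upstream tags of the Grik5 strand run antisense to it. Counted within 500 bp of its own 5′ end, Zfp574 had 13, 3 and 2 tags in mESCs and 276, 355 and 524 in mOPCs, so this divergent pair was higher in mOPCs on both strands.

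Summed over the 3 kainate genes, the level was 37.2, 33.0 and 37.5 TPM in mESCs and 565, 598 and 554 in mOPCs, a 15.9-fold difference. The fold depended on the tags counted, with a log2 ratio of 3.995 as defined above, 5.61 within 100 bp of the annotated 5′ ends and 2.70 for all tags inside the genes. The last of these counts leaves out the leading start of Grik3, upstream of its annotated 5′ end, and includes its intronic starts. Grik3 supplied 97.9 ± 0.573% of the kainate tags in mESCs and 27.8 ± 0.674% in mOPCs, where Grik2 supplied 71.0 ± 0.644%. Grik5 made up 1.27 ± 0.231% and 1.15 ± 0.114% of the class in the respective lines.

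The NMDA class held genes of opposite direction. Grin1 (chr2:25291181-25319187, minus strand), which encodes the obligatory subunit GluN1, had 5.31, 5.16 and 6.51 TPM in mESCs and 0.410, 0.624 and 0.538 in mOPCs. The means of 5.66 ± 0.741 and 0.524 ± 0.107 (SD, n = 3 each) were 10.8-fold apart, with mESCs higher. Counting all tags inside the gene moved the log2 ratio from −3.43 to −5.04. The mOPC values rest on 9, 18 and 22 tags. Grin3a (chr4:49661611-49845744, minus strand) encodes GluN3A, a subunit that binds glycine and lowers calcium passage through NMDA receptors. It had 2, 2 and 0 tags in the mESC libraries and 105, 98.0 and 77.1 TPM in the mOPC libraries, with a pooled ratio of 1647 and an exact 95% binomial interval from 643 to 6045 for counting error only. That ratio rests on 4 mESC tags, and the log2 ratio of the means moved from 10.66 to 11.79 without mESC replicate 2, to 10.08 without mESC replicate 3 and to 8.30 with all tags inside the gene. The count inside the gene leaves out the leading start of Grin3a, just upstream of its first annotated 5′ end.

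Grin2d (chr7:45831883-45878378, minus strand), which encodes GluN2D, was near the limit of detection in both lines. It had 0.317, 0.0600 and 0.163 TPM in mESCs and 0.502, 0.312 and 0.538 in mOPCs, from 12, 1 and 3 tags and 11, 9 and 22 tags. The ranges overlapped, and without mESC replicate 1 the log2 ratio moved from 1.32 to 2.02. When all tags inside the gene were counted, the ratio turned to −1.04. Grin2d and Grin1 were neighbours in the order of mOPC levels, at 0.450 ± 0.121 and 0.524 ± 0.107 TPM, a gap smaller than either SD.

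Summed over the 3 NMDA genes, the level was 5.67, 5.34 and 6.67 TPM in mESCs and 106, 99.0 and 78.1 in mOPCs. Grin3a made up 98.9 ± 0.275% of the tags of these 3 genes in mOPCs and Grin1 0.569 ± 0.159%, whereas Grin1 made up 95.9 ± 2.13% in mESCs. The difference between the lines in this sum depended on where tags were counted. Its log2 ratio of 3.998 at annotated 5′ ends became 0.27 for all tags inside the genes. That count includes tags inside Grin1, at 50.1 TPM in mESCs and 1.21 in mOPCs, most of the mESC ones from 1 start described below. It leaves out the leading start of Grin3a, 1 bp upstream of its first annotated 5′ end. Grin2a, Grin2b, Grin2c and Grin3b are not in the NMDA sum. They had 0.589, 0.723, 0.345 and 0.0724 TPM in mESCs, and 0, 0, 0 and 0.0360 in mOPCs. Over the 10 genes together, AMPA genes accounted for 12.8% in mESCs and 60.8% in mOPCs, kainate genes 74.9% and 33.7%, and NMDA genes 12.3% and 5.55%.

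In mOPCs the order of the means was Gria2, Grik2, Gria4, Grik3, Grin3a, Gria3, Grik5, Grin1, Grin2d and Gria1, and except for the pair Grin1 and Grin2d, each gene's lowest library lay above the highest library of the next. In mESCs the order was Grik3, Grin1, Gria4, Gria3, Grik5, Grik2, Grin2d, Grin3a, Gria2 and Gria1, and from Grik5 down the ranges of neighbouring genes overlapped.

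The positions at which mapped tags began were compared with the annotation. For Gria2, Gria3, Grik2, Grin1 and Grin3a the leading start lay 1 bp upstream of an annotated 5′ end, at chr3:80802725, chrX:41401397, chr10:49788755, chr2:25319127 and chr4:49845745. The leading start of Gria4 was 28 bp downstream of the nearest annotated 5′ end. For Grik3, which has 1 annotated transcript, it was 226 bp upstream, which is why a window of 100 bp misses it. All 3 mOPC libraries shared the leading start for each of these 7 genes.

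The promoters of Gria4, Grik2 and Grik3 are shown because their leading starts lie within the RefSeq promoter sequences. The leading start is the position where mapped tags begin, and whether it is the first transcribed base was not tested. In each, the leading start and the base before it are in capitals. The stretches are chr9:4796205-4796306 (minus strand), chr10:49788754-49788855 (minus strand) and chr4:125490446-125490544 (plus strand) of GRCm38.p6, 5′ to 3′:
Gria4: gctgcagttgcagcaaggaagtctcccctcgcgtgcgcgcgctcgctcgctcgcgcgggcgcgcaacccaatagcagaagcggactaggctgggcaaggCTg
Grik2: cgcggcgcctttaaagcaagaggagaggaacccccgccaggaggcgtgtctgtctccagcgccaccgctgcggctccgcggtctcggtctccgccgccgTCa
Grik3: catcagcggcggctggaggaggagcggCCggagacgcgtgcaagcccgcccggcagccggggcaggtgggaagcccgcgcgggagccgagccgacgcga

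All 7 promoters held more CpG dinucleotides than the median promoter. The 300 bp promoters of Gria2, Gria4, Grik2, Grik3, Grik5, Grin1 and Grin2d held 26, 17, 26, 50, 10, 33 and 12 CpGs, against a median of 7 over all promoters, and 99.3% of promoters held as many as Grik3 or fewer. The letters TATAAA, the core of the TATA box, were in none of the 7 on either strand and in 13.6% of all promoters. The GC box letters GGGCGG, bound by SP1-type factors, occurred 7 times in Grik3, 2 times in Grik5 and 1 time in Grin1 and were present in 35.7% of all promoters. These counts describe the RefSeq promoter sequences, which need not hold the start in use. The leading starts of Gria2 and Grin1 lay 110 and 60 bp downstream of the first annotated 5′ end. For Grin2d, the region at the first annotated 5′ end had 0 tags in every library. Promoter sequences of Gria1, Gria3 and Grin3a were not used here.

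Starts differed in how far they spread. The stretch that held the middle 80% of tags, from the 10th to the 90th percentile of the start region with the leading start, was 22, 18 and 19 bp wide for Grik2 in the 3 mOPC libraries. It was 203, 179 and 207 bp for Gria2, 237, 237 and 238 bp for Gria3, 259, 217 and 200 bp for Gria4, 283, 277 and 283 bp for Grik3 and 341, 399 and 386 bp for Grin3a. Grik2 thus had a focused start and the other 5 genes broad ones, in every mOPC library. Despite the wide spread of Grin3a, 29.2 ± 1.28% of its tags at annotated 5′ ends fell on 1 position in mOPCs, against 29.5 ± 1.38% for Grik2, 14.4 ± 0.863% for Grik3, 10.1 ± 0.982% for Gria4, 5.83 ± 0.232% for Gria2 and 4.47 ± 0.498% for Gria3.

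**Figure D3:**
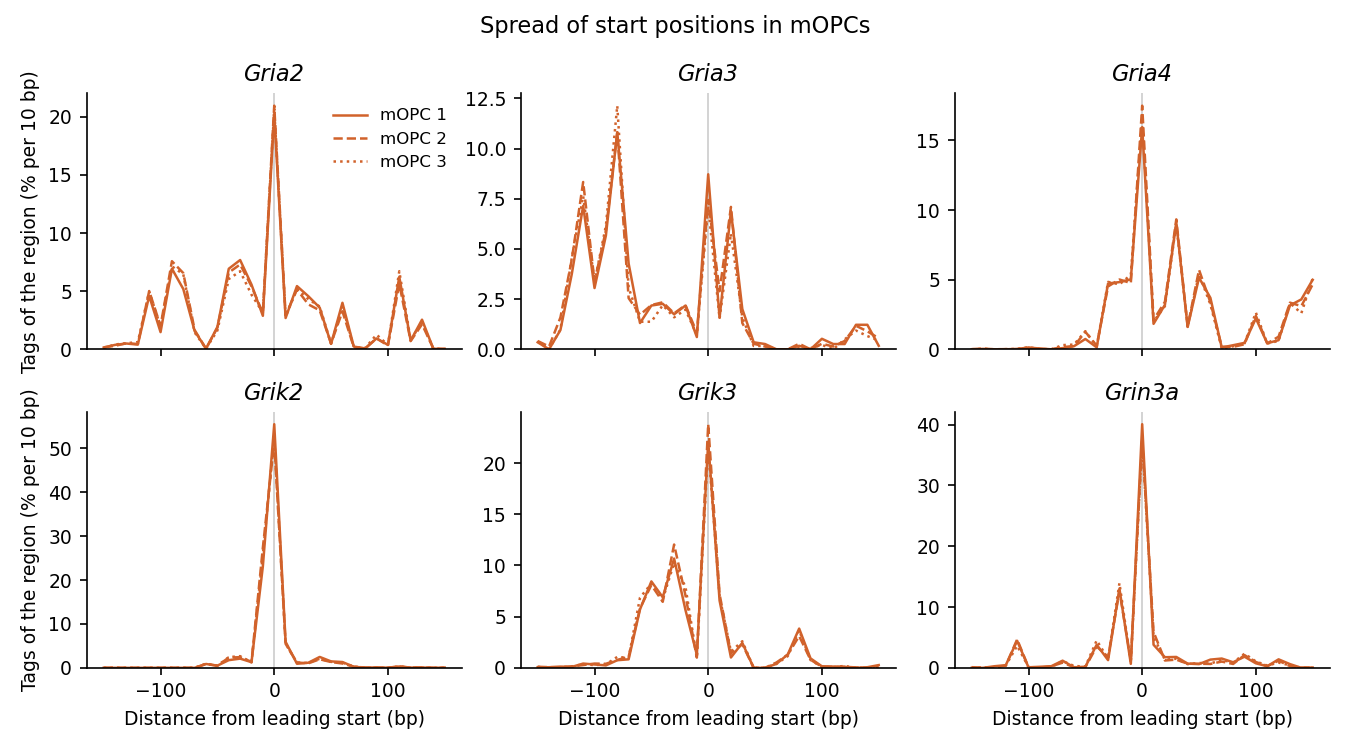
Share of the start region's tags (% per 10 bp) against distance from the leading start (bp, positive downstream) in the 3 mOPC libraries of 6 subunit genes. The libraries overlie each other. Grik2 is confined to a narrow peak, 18 to 22 bp wide, while Gria2, Gria3 and Gria4 have several peaks.

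The share of 5′-end tags on the leading start could be compared between the lines for Gria4 and Grik3, the genes with at least 20 tags in every library. This share was not part of what chose the genes. The leading start was, however, picked from these same libraries by the mean level, in which the higher mOPC levels weigh most. For Gria4 it was the top position in 3 mOPC libraries and in 1 mESC library, so its share may be raised in mOPCs by that choice. For Gria4 it was 4.64, 12.2 and 8.45% in mESCs and 9.08, 11.0 and 10.2% in mOPCs, a difference of 1.69 percentage points (two-sided exact permutation test, p = 0.6, adjusted p = 0.6 over 2 genes). For Grik3 it was 12.8, 15.7 and 11.0% in mESCs and 13.9, 15.4 and 13.9% in mOPCs, a difference of 1.22 points (two-sided exact permutation test, p = 0.5, adjusted p = 0.6). The ranges of the lines overlapped for both genes, and both differences hung on single libraries. The Gria4 difference was −0.21 points without mESC replicate 1 and 3.57 without mESC replicate 2, and the Grik3 difference was 0.14 without mESC replicate 3 and 2.49 without mESC replicate 2. Tags within 5 bp of the leading start gave 7.08 points for Gria4. A window of 100 bp gave 7.78 for Grik3, but it misses the leading start. That value is therefore the share of another position among fewer tags. With 3 libraries against 3 the smallest p this test allows is 0.1, so no difference could have passed the threshold. The leading start of Grik3 was the same position in all 6 libraries, and so was that of Grin1, which held 26.9, 18.6 and 27.5% of the tags at annotated 5′ ends of Grin1 in mESCs.

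Grik2 used separate start regions. The first, at its first annotated 5′ end (chr10:49788254-49789266), held 6970, 9847 and 12996 tags in mOPCs, or 80.1 ± 1.47% of the gene's 5′-end tags. A second, 5357 bp downstream (chr10:49782759-49783909, with 4 annotated transcripts), held 19.3 ± 1.44%. In mESCs 17 of the 21 Grik2 tags lay in the second region and 3 in the first. The first region therefore had 1 tag per mESC library. On the opposite strand the transcript Gm48123 starts 61 bp from Grik2, and it had 0 tags in mESCs and 382, 431 and 681 in mOPCs. Gria3, by contrast, had 92.7 ± 0.102% of its mOPC tags in its first region and 6.17 ± 0.150% in a second region 1886 bp downstream. Grin3a had 99.7 ± 0.103% in its first region.

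Tags were also found inside the genes, away from any annotated 5′ end. In mOPCs the share of a gene's tags that lay at annotated 5′ ends was 86.0 ± 0.995% for Gria2, 74.3 ± 0.686% for Grin3a, 70.4 ± 1.50% for Grik3, 65.4 ± 1.36% for Gria4, 64.3 ± 2.02% for Gria3, 60.9 ± 0.431% for Grik2 and 49.7 ± 1.17% for Grik5. The remaining mOPC tags of Gria4, Grik2 and Gria3 were scattered, and no cluster of them held more than 1.90, 1.18 and 1.38% of the tags inside the respective gene. Of the tags inside Gria2, 49.8% lay in exons, which cover 12.8% of the gene, against 4.53% for Gria4, 2.88% for Grik2 and 7.83% for Gria3, whose exons cover 1.67, 1.91 and 3.55%. Per kilobase, tags inside the gene amounted to 0.929 TPM in Gria2, 0.404 in Gria4, 0.379 in Grik2 and 0.107 in Gria3. The largest cluster inside Gria2 had its leading position in the coding part of its exon 2, 1052 bp downstream of the first annotated 5′ end, at 16.8, 20.6 and 23.1 TPM in mOPCs and 0 in mESCs.

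**Figure D4:**
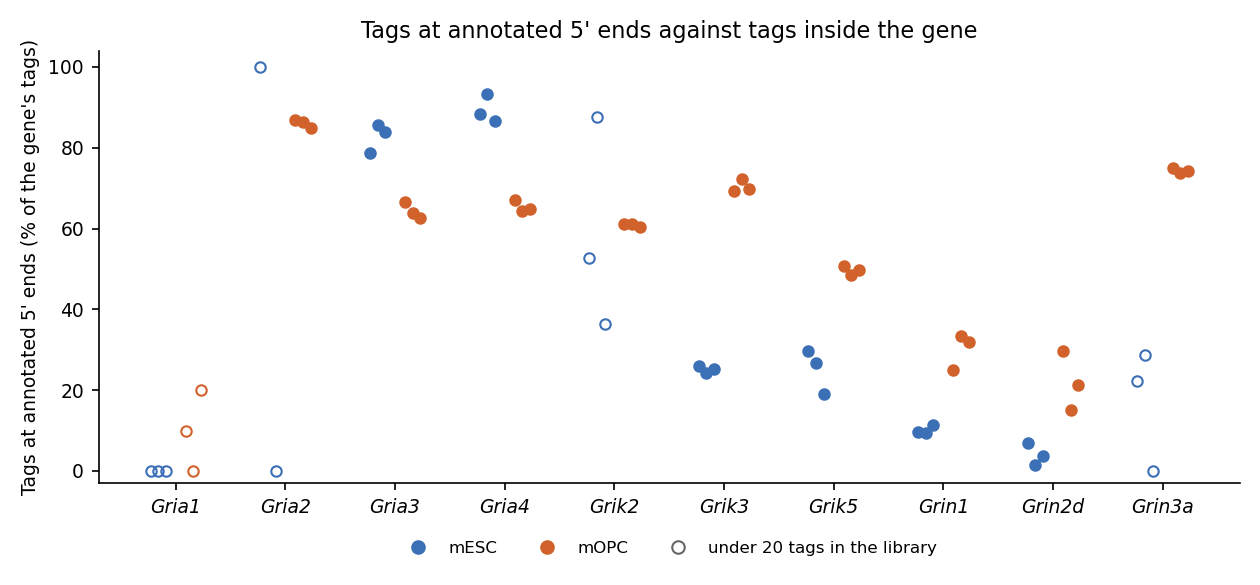
Tags at annotated 5′ ends as a share of all tags of the gene (%), 1 point per library, with open circles for libraries that have under 20 tags of the gene. For Grik3, Grik5, Grin1, Grin2d and Grin3a every mESC library lies below every mOPC library, with open circles for Grin3a in mESCs. For Gria3 and Gria4 every mESC library lies above.

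In mESCs, most tags of Grin1 came from a start inside the gene. A cluster 286 bp wide (chr2:25311422-25311707) had 47.1, 47.9 and 48.6 TPM in mESCs, 1786, 798 and 896 tags, and 0 in all mOPC libraries. It held 95.5% of the mESC tags inside Grin1, so that annotated 5′ ends accounted for 10.1 ± 1.02% of the gene's tags. The mean of 47.9 ± 0.743 TPM was above the 5.66 ± 0.741 at the annotated 5′ ends of Grin1. Its leading position, chr2:25311512, was 7675 bp downstream of the first annotated 5′ end and lay in exon 3 (chr2:25310801-25313604) of the non-coding transcript ENSMUST00000155627.1. The sequence around it is shown because this start is not annotated as one, with the leading position and the base before it in capitals (chr2:25311452-25311572 of GRCm38, minus strand, from the GENCODE transcript):
Grin1: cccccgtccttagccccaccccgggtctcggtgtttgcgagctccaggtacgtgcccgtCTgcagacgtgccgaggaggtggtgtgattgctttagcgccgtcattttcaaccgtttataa

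Grin2d likewise had a cluster inside the gene that was seen in mESCs, at a lower level. It was 471 bp wide (chr7:45862192-45862662), had its leading position in a coding exon, and amounted to 2.27, 2.22 and 2.44 TPM in mESCs against 0, 0 and 0.0244 in mOPCs. The level at the annotated 5′ ends of Grin2d in mESCs was 0.180 ± 0.129. On the opposite strand Kdelr1, an endoplasmic reticulum retention receptor, overlaps Grin2d and had 615 to 2770 tags in each library, and CAGE tags carry their strand.

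Grik3 had several intronic starts. The strongest in mESCs spanned 3 bp (chr4:125504076-125504078), 13378 bp downstream of the annotated 5′ end, and had 59.1, 55.4 and 61.5 TPM in mESCs and 5.61, 5.76 and 5.57 in mOPCs. The processed pseudogene Ftl2-ps, a copy of a ferritin light chain mRNA, begins downstream of it in the same intron, on the same strand, at chr4:125504288. Its own annotated span had 0 tags. Whether the tags of the 3 bp start belong to Grik3, to the pseudogene or to its parent gene was not tested. A second, 274 bp wide (chr4:125609497-125609770), had 24.89, 24.97 and 28.87 TPM in mESCs and 0.0456, 0 and 0.0244 in mOPCs. Another, 751 bp wide (chr4:125535064-125535814), had the opposite pattern, with 0.475, 0.300 and 0.488 TPM in mESCs and 9.35, 9.81 and 12.0 in mOPCs. The first and second of these starts held 56.1% and 24.7% of the mESC tags inside Grik3. With them, tags away from its annotated 5′ end came to 105 ± 4.64 TPM in mESCs and 66.8 ± 2.13 in mOPCs. These levels, and the log2 ratio of −0.55 for all tags inside the gene, include the start beside Ftl2-ps. They leave out the leading start of Grik3 upstream of its annotated 5′ end.

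**Figure D5:**
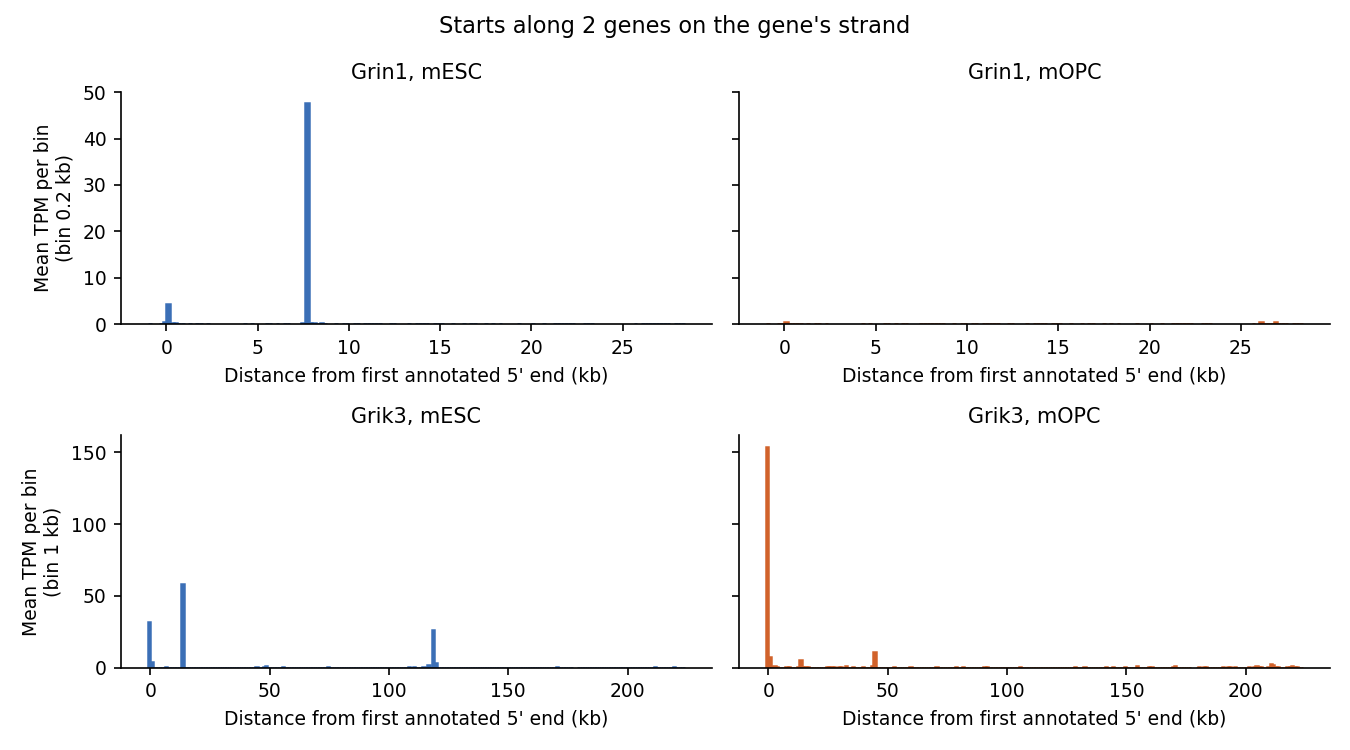
Mean TPM per bin along Grin1 (bins of 0.2 kb) and Grik3 (bins of 1 kb) on the gene's strand, against distance from the first annotated 5′ end (kb), for mESCs on the left and mOPCs on the right. The tallest mESC bar of Grin1 lies 7675 bp from the first annotated 5′ end, and Grik3 in mESCs has bars at 13378 and 118916 bp in addition to its annotated start.

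The other 8 ionotropic subunit genes followed no single direction. Of the 6 that passed the filter, 4 were called higher and 2 lower in mOPCs, beside 43.4% and 47.8% of all genes tested. Grid1, which encodes a delta receptor that glutamate does not open, rose from 0.468 ± 0.0987 to 54.9 ± 3.16 TPM (log2 fold change 6.72, edgeR adjusted p = 2.80e-60, and 8.69 with a window of 100 bp). The kainate subunit gene Grik4 rose from 8.11 ± 1.08 to 34.2 ± 2.43 TPM (2.03, edgeR adjusted p = 8.37e-32), and Grik1 from 0.213 ± 0.146 to 1.48 ± 0.205 (2.54, edgeR adjusted p = 1.08e-10, and 3.33 without mESC replicate 1, which held 13 of its 18 mESC tags). Grin2a and Grin2b, the major partners of GluN1 in the forebrain, had 40 and 54 tags in mESCs and none in mOPCs, which makes them at least 16.8-fold and 22.6-fold lower there (pooled, against a floor of 3 tags). All tags inside the gene gave a log2 fold change of −2.03 for Grin2a and of 0.12, in the other direction, for Grin2b. Grin2c had 11, 7 and 6 tags in mESCs and 0 in mOPCs, and Grin3b had at most 4 tags in a library. At annotated 5′ ends, GluN2 genes were therefore nearly without tags in mOPCs, with Grin2d at 11, 9 and 22 tags as the one that had any.

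Of 17 genes for auxiliary subunits and receptor assembly, 12 passed the filter, 10 were called higher in mOPCs and 2 lower, beside 43.4% and 47.8% of all genes, with a median log2 fold change of 2.23 against −0.12 over all genes tested. Cacng4, which encodes the AMPA receptor regulator TARP gamma-4, rose from 1.06, 1.08 and 1.85 to 166, 169 and 168 TPM (log2 fold change 6.97, edgeR adjusted p = 6.89e-69, and 8.09 with all tags inside the gene). Neto1, an auxiliary subunit of kainate receptors, had 1 mESC tag and 18.3, 19.9 and 16.5 TPM in mOPCs (pooled ratio 1313, exact 95% binomial interval 235 to 51897 for counting error only, edgeR adjusted p = 1.96e-48). Cacng8, which encodes TARP gamma-8, rose from 0.692 ± 0.0635 to 23.9 ± 1.09 TPM (5.00, edgeR adjusted p = 1.32e-47), but all tags inside the gene gave −2.82. Cacng5 and Shisa8 fell from 3.52 ± 0.531 and 0.963 ± 0.313 TPM to 1 and 2 tags in all mOPC libraries (edgeR adjusted p = 2.64e-30 and 1.46e-13), and all tags inside the gene moved the log2 fold change of Cacng5 from −7.92 to −2.66.

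Among 17 scaffold and trafficking genes, 16 passed the filter, 12 were called higher and 2 lower, with a median log2 fold change of 1.46. These counts stand beside 43.4% and 47.8% of all genes tested. Nsg1, a neuronal endosomal protein that takes part in AMPA receptor recycling, rose from 0.245 ± 0.104 to 182 ± 7.80 TPM (9.60, edgeR adjusted p = 1.10e-72), and its relative Nsg2 from 0.251 ± 0.125 to 9.81 ± 0.726 (5.07, edgeR adjusted p = 2.38e-37, and 3.93 with all tags inside the gene). Shank2, a postsynaptic scaffold, rose from 0.390 ± 0.234 to 10.3 ± 1.34 (4.41, edgeR adjusted p = 5.73e-34, 5.27 without mESC replicate 1 and 3.41 with all tags inside the gene). Homer2 fell from 1.49 ± 0.195 TPM to 0, at least 44.0-fold (pooled, floor of 3 tags). Nsf, an ATPase of membrane fusion that binds GluA2, fell from 107 ± 7.44 to 88.6 ± 8.35 (−0.34, edgeR adjusted p = 1.00e-04).

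Of 8 metabotropic glutamate receptor genes, 2 passed the filter. Grm7 rose from 0.0733 ± 0.0281 to 53.3 ± 8.70 TPM (9.21, edgeR adjusted p = 8.38e-46, but 4.50 with all tags inside the gene), and Grm2 fell from 0.942 ± 0.351 to 0, at least 29.7-fold. The other 6 had at most 9 tags in a library. Of 11 glutamate transport and metabolism genes, 9 passed the filter, 5 were called higher and 4 lower (median 1.11). Over all genes tested, 43.4% were called higher and 47.8% lower. The uptake transporter gene Slc1a2 had 1 mESC tag and 13.3, 13.6 and 15.2 TPM in mOPCs, and Slc1a1, another uptake transporter gene, rose from 16.3 ± 0.776 to 95.2 ± 5.99 (2.48, edgeR adjusted p = 1.23e-43). Glud1, which breaks glutamate down, fell from 475 ± 11.0 to 32.9 ± 4.40 (−3.92, edgeR adjusted p = 3.19e-59, and −2.81 with all tags inside the gene). The vesicular transporter gene Slc17a7 fell from 0.901 ± 0.181 TPM to 1 tag, and the transporter gene Slc1a6 from 1.16 ± 0.286 to 0.0745 ± 0.0347 (−3.98), the latter with 0.39 for all tags inside the gene.

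Of 10 genes for RNA editing enzymes and the REST complex, 9 passed the filter, 5 were called higher and 4 lower (median 0.60). Adarb1, the deaminase that edits the Gria2 message, rose from 14.4, 11.2 and 15.1 to 70.6, 66.9 and 69.0 TPM (2.26, edgeR adjusted p = 3.21e-39). Adar, the other active deaminase, rose from 28.7 ± 0.930 to 92.9 ± 6.80 (1.62, edgeR adjusted p = 8.96e-32). Adarb2, which has no known activity, had at most 5 tags in a library. Beside Rest, Sin3a and Kdm1a, members of its corepressor complexes, fell (−1.20 and −0.92, edgeR adjusted p = 3.46e-20 and 3.34e-18), whereas Rcor3 rose (3.08, edgeR adjusted p = 6.67e-43). Editing itself cannot be read from tags at 5′ ends. Over all 71 listed genes that are not among the 10, 54 passed the filter, 37 were called higher and 15 lower, to be read against 43.4% and 47.8% of all genes.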

How the data were processed

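The deposited values are counts per library: the authors' raw number of CAGE tags starting at each stranded position of mm10. Per the study's methods, linkers were trimmed and unique bowtie alignments kept. The submitters' processing notes name CASAVA 1.8 and BWA 0.5.9, and which aligner made these values is not given in the sources used here. Gene models came from GENCODE vM21, and promoter sequences from RefSeq (GRCm38.p6), which matched 7 of the 10 genes. Counts were summed within 500 bp of annotated 5′ ends on the gene's strand, and levels were scaled to library totals. Genes were compared with edgeR 4.0.16 (quasi-likelihood test, robust, TMM, filterByExpr, Benjamini-Hochberg) in R 4.3.3, over all genes at once, after a test on simulated data. Shares were compared by exact permutation tests (scipy 1.17.1). The SE of a log2 ratio comes from the spread between libraries. Clusters inside genes joined positions up to 50 bp apart and needed 25 tags. Named were all members, all other subunit genes, and up to 3 called genes per direction and list, plus Rest, Adar, Adarb1 and Adarb2, apart from a few genes not reported here. The members and lists were chosen with earlier results of these data known. Alternatives were DESeq2 1.42.0, library totals, no filter, other windows, all tags in the gene, a replicate block and leaving out libraries.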

Additional observations from a re-analysis of the deposited data

How the results depend on the processing

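Counting all tags inside a gene instead of those near annotated 5′ ends turned the log2 ratio of Grik3 to −0.55, of Grin2d to −1.04, of Grin2b to 0.12, of Cacng8 to −2.82 and of Slc1a6 to 0.39. It also moved the summed log2 ratio of the listed AMPA genes from 7.39 to 7.52. That of the listed kainate genes moved from 3.995 to 2.70 and that of the listed NMDA genes from 3.998 to 0.27. The Grik3 and kainate values for all tags inside the gene include the start beside the pseudogene Ftl2-ps. Counts of all tags inside a gene begin at its first annotated 5′ end. They leave out the leading starts of Grik3, Grik5 and Grin3a, which lie 226, 187 and 1 bp upstream of it. A window of 100 bp gave 7.48 for AMPA and 5.61 for kainate genes. The counts of genes called higher (7251) and lower (7992) stayed within 6583 to 8249 and 7555 to 9935 over all alternatives. TMM moved the median log2 fold change of all genes by −0.07 against library totals. Samples of one number did not deviate together (correlations of −0.0033, 0.0595 and 0.0064 over 16713 genes), and the main comparison was unpaired. The labels do not say whether libraries of 1 number were prepared together. With a replicate block, 7228 genes were higher and 7996 lower, and 37 and 15 of the listed genes. Ratios that rest on 4 mESC tags or fewer depend on single libraries: that of Neto1 was 9.90 on the log2 scale and 12.02 without mESC replicate 2, that of Slc1a2 9.53 and 11.47 without mESC replicate 1, and that of Gria2 could not be computed without mESC replicate 1. Depth limits Gria1, Grin2d and Adarb2 most. Nothing here separates the lines from their library preparation.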
